A study of Mus musculus with 24 samples.

Results

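Lungs of C57BL/6J mice taken 14 d after intratracheal bleomycin were compared with lungs of the same strain taken 14 d after intratracheal saline. The comparison used 4 of the 24 arrays of a series on sensitivity to pulmonary fibrosis: 2 bleomycin arrays and 2 saline arrays, chosen by strain, agent and time in the sample titles. The bleomycin dose was 1.5 U per kg, and the lungs were frozen before total RNA was hybridised, one sample to an array. The other 20 arrays covered C57BL/6J at 24 h and 72 h and BALB/c at 24 h, 72 h and 14 d. Age, sex, genotype beyond the strain and the number of animals behind an array are not given in the sources used here. Both groups are whole frozen lung of an inbred strain, with no transgene named.

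Bleomycin breaks DNA and, given into the airway, injures the alveolar epithelium and the capillary endothelium. Inflammation follows, then fibroblasts and myofibroblasts lay down collagen, and monocyte-derived macrophages gather where the tissue is remodelled. C57BL/6J is widely used as a strain in which this scarring is pronounced, and BALB/c as one in which it is milder. In whole lung RNA, fewer cells of a type and less RNA per cell cannot be told apart.

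The labels mark the arrays of a group a and b and do not say whether these are separate animals. The p-values below therefore measure only a spread between arrays, pooled over the 12 groups of the series, which may be technical. The median absolute log2 difference between arrays a and b was 0.290 in the C57BL/6J bleomycin group of 14 d. In the other groups it was 0.133 to 0.285, so the pooled spread may be too small for this group. The title of bleomycin array a ends in s2a, and the titles of the other 3 arrays end in s2. Bleomycin array a had the lowest median intensity of the 4 (313, against 361 on bleomycin array b, 342 on saline array a and 373 on saline array b) and the highest maximum (19576, against 11477, 14338 and 9682). Across probe sets the log2 values of the bleomycin arrays correlated with r = 0.938 and those of the saline arrays with r = 0.954, where probe sets are not independent replicates. The control probe set at the 3′ end of actin read 7855 and 669 on bleomycin arrays a and b and 475 and 212 on saline arrays a and b. Its ratio to the 5′ probe set was 0.623, 0.225, 0.0566 and 0.0515 in that order, and the part of this difference in the results was not tested. Lung markers were present on all 4 arrays: Lyz2 (lysozyme of myeloid and type 2 cells) read 8243 to 10387, Cdh5 (endothelial cadherin) 3167 to 6672 and Cyp2f2 (club cells) 4026 to 8988. Other markers were uneven or dim: Sftpc, the surfactant protein of alveolar type 2 cells, spread from 127 to 14576, Sftpd, another surfactant protein, read 74.5 to 181, and Pecam1, of endothelium, 103 to 384. The red cell gene Hba-a1 read 4698 and 617 on bleomycin arrays a and b and 361 and 345 on the saline arrays. As a check of strain, 15 probe sets separated the C57BL/6J from the BALB/c arrays by at least 1 log2 unit when the 4 saline arrays of 72 h were set aside. On the 2 of those labelled C57BL/6J all 15 lay nearer to the BALB/c mean, and on the 2 labelled BALB/c 14 and 15 lay nearer to the C57BL/6J mean. The saline arrays of 72 h entered the estimate of the spread but not the group means compared. They also entered the offset, the filter and the choice of the brightest probe set, all described under the processing. With them left out of the fit alone 551 probe sets were called, against 647 with them.

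Of 6464 genes, each read through 1 probe set, 202 were higher after bleomycin (3.12%) and 298 were lower (4.61%) at an adjusted p under 0.05 in limma, Benjamini-Hochberg adjusted over all probe sets tested. Changes are differences of log2(intensity + 92), so that the change of dim genes is understated, and are given with the standard error of the model (n = 2 arrays per group). Over all genes the median change was -0.07. Of the 647 probe sets called, 41.9% were higher, and after cyclic loess normalization between arrays 678 were called, 54.4% of them higher. The bleomycin and saline arrays did not overlap for 202 of 202 higher and 298 of 298 lower genes, and for 2915 of all 6464 genes (45.1%). A lack of overlap in a called gene is therefore not further evidence for its change. Bleomycin array a lay farther from the saline arrays than array b. Among the higher genes it read above array b in 178 of 202, with a median departure from the saline mean of 1.22 against 0.82 on array b. In 263 of the 298 lower genes it read below array b, with a median departure of -1.02 against -0.59. Over all 6464 genes it read above array b in 2616.

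**Figure D1:**
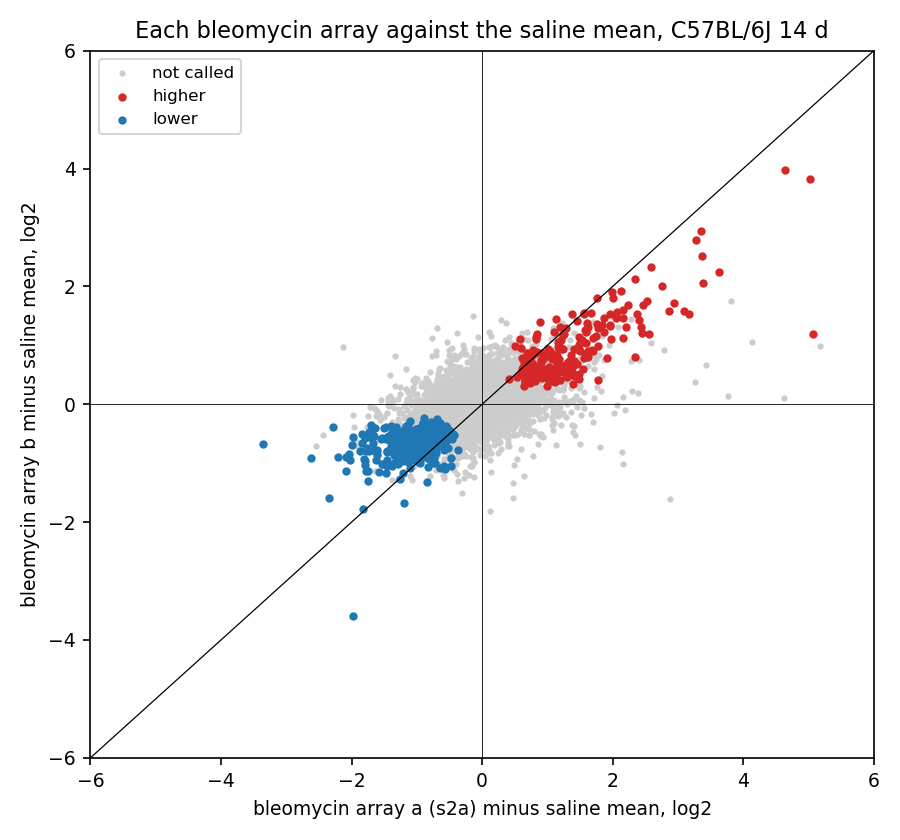
Each point is 1 gene, with its log2 difference from the mean of the saline arrays on bleomycin array a (x axis) and on bleomycin array b (y axis), and the line marks equal values. Red genes were called higher and blue genes lower, and most of both lie farther from 0 on array a (178 of 202 and 263 of 298).

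Without bleomycin array a, 40 genes were higher (0.619%) and 29 lower (0.449%). The spread was pooled over the 12 groups of the series, and with the 4 arrays compared alone 4 probe sets were called (1118 at an unadjusted p under 0.05). Without bleomycin array b the counts were 367 and 621, without saline array a 95 and 137, and without saline array b 128 and 113. A set of 33 higher and 22 lower genes was called in the full comparison and again without each of the 4 arrays in turn. Both bleomycin arrays are given below for the genes described.

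**Figure D2:**
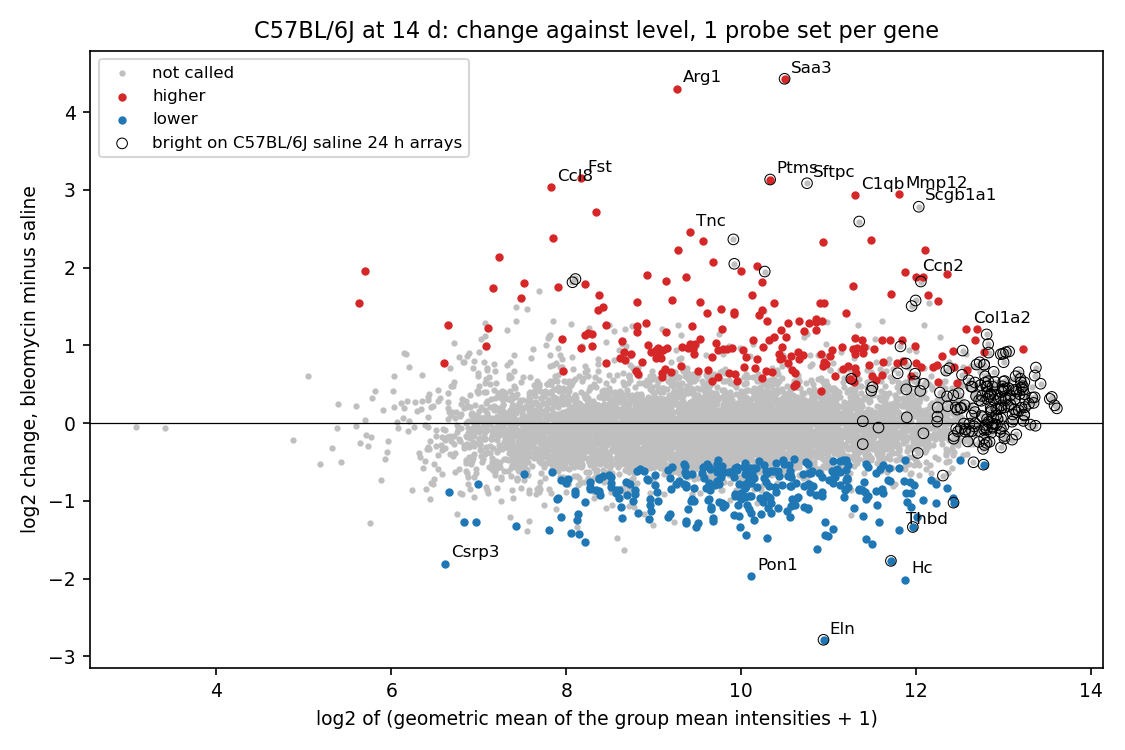
The log2 change of each gene (y axis) is plotted against its level over the 4 arrays (x axis, log2 of the geometric mean of the group means). Red genes were called higher and blue lower, and circles mark genes that were bright (mean above 6888) on the saline 24 h arrays of C57BL/6J, among them Sftpc and Scgb1a1.

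Of 6 tested fibrillar collagens, the rope-like collagens of scar tissue, 4 rose and none fell, with a median change of 0.97 against -0.07 for all genes. Col5a2, the type V chain that helps to start fibrils, read 9947 and 6347 on bleomycin arrays a and b and 2541 and 2423 on saline arrays a and b. It rose by 1.64 ± 0.23 (SE, adjusted p = 0.000693). Col1a2, a chain of the main scar collagen, read 11156 and 7662 against 4312 and 3602, a rise of 1.21 ± 0.19 (adjusted p = 0.00162), although its other, dimmer probe set differed by only 0.05 (adjusted p = 0.923). Col5a1, the partner chain of Col5a2, read 4299 and 3549 against 1578 and 2067 (1.07 ± 0.17, adjusted p = 0.00162), and its other probe set gave 0.999. For these 3 genes, as for all 202 higher genes, both bleomycin arrays were above both saline arrays. Array a was the higher of the pair, and the call was kept without any 1 of the 4 arrays.

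Col3a1 and Col1a1 depended on the probe set and on bleomycin array a. Col3a1 read 9591 and 4556 against 3498 and 3679 in its brightest probe set (0.87 ± 0.25, adjusted p = 0.0419), and it was not called without bleomycin array a (adjusted p = 0.546), saline array a (0.147) or saline array b (0.129). A dimmer Col3a1 probe set read 2069 and 1248 against 319 and 414, a larger change of 1.90 (adjusted p = 0.000693), and a further one gave 0.58 (adjusted p = 0.102). Col1a1 read 15562 and 6859 against 6821 and 7107, so that array b lay among the saline arrays, and the change of 0.56 ± 0.29 was not called (adjusted p = 0.258). The other Col1a1 probe set read 8994 and 4279 against 2942 and 3572 and was called (0.92, adjusted p = 0.0342).

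Among 19 other collagens 2 rose and 1 fell (median 0.14). Col7a1, the anchoring fibril collagen, read 1354 and 1109 against 576 and 608 (0.95, adjusted p = 0.0046), and Col6a3, of the microfibrils around cells, 11296 and 8098 against 5304 and 4799 (0.91, 0.0274). Col17a1, a collagen of epithelial hemidesmosomes, fell from 202 and 307 to 50.8 and 49.8 (-1.27, adjusted p = 0.026). The call of Col7a1 was lost without bleomycin array a (adjusted p = 0.0875), that of Col6a3 without bleomycin array a (adjusted p = 0.3004), saline array a (0.0806) or saline array b (0.138), and that of Col17a1 without any 1 of the 4 arrays (adjusted p from 0.0512 to 0.177).

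Of 10 enzymes that process or crosslink collagen 2 rose and 1 fell (median 0.17). Lox, which crosslinks collagen and elastin, read 4037 and 2552 against 704 and 1529 (1.54 ± 0.33, adjusted p = 0.00984), and saline array a read below array b. Bmp1, which trims procollagen, read 1349 and 1126 against 818 and 706 (0.64, adjusted p = 0.0298), and P4ha1, a subunit of prolyl hydroxylase, fell from 1012 and 1273 to 402 and 682 (-0.99, adjusted p = 0.01). None of the 3 was called without bleomycin array a (adjusted p = 0.163, 0.280 and 0.197), Lox and Bmp1 were not called without saline array a (0.120 and 0.0685), and Bmp1 and P4ha1 were not called without saline array b (0.178 and 0.0925).

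Other matrix proteins were led by Tnc and Fbln2. Tnc, tenascin C, a glycoprotein made during wound repair, read 1984 and 1643 against 281 and 229 and rose by 2.46 ± 0.28 (adjusted p = 0.000128). Fbln2, a fibulin of elastic fibres and basement membranes, read 2591 and 1739.6 against 429 and 536 (1.95 ± 0.20, adjusted p = 3.3e-05). Both kept their call without any 1 of the 4 arrays, and in both the bleomycin arrays lay far above the saline arrays. Bleomycin array a read 1.21 times array b for Tnc and 1.49 times for Fbln2.

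Of 25 matrix glycoproteins and proteoglycans 3 rose and none fell (median 0.20), and 1 of the 3, Tnc, was called without bleomycin array a. The others were Tgfbi, a matrix protein induced by TGF-beta, with 2457 and 1664 against 652 and 879 (1.32, adjusted p = 0.0104; not called without bleomycin array a (adjusted p = 0.167) or saline array a (0.09)), and Dcn, decorin, which binds collagen fibrils, with 7547 and 6031 against 4746 and 4645 (0.51, adjusted p = 0.0419; not called without bleomycin array a (adjusted p = 0.359), saline array a (0.120) or saline array b (0.154)). Fn1, fibronectin, read 1914 and 834 against 1428 and 1397. Its bleomycin arrays lay on either side of the saline arrays, and it was not called (-0.14 ± 0.37, adjusted p = 0.864).

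Of 9 elastic fibre genes, read through their brightest probe sets, 2 rose and 2 fell (median 0.33), Eln being 1 of the 2 that fell. For Eln, elastin, the 2 probe sets went in opposite directions. The brighter one over all arrays read 1141 and 308 against 7764 and 2894, a change of -2.79 ± 0.44 (adjusted p = 0.00151), and the other read 6118 and 3784 against 691 and 2008, a change of 1.94 ± 0.36 (adjusted p = 0.00385). In each probe set the bleomycin and saline arrays did not overlap, so no direction is given for the gene. Fbln1, another fibulin, fell from 2749.8 and 2831 to 1546 and 2035 (-0.63, adjusted p = 0.00984); another of its 3 probe sets also fell (-1.28) and the remaining one was not called (-0.13). Ltbp2, which binds fibrillin, read 1864 and 1488 against 902 and 1146 (0.66, adjusted p = 0.0243). Fbln1 was not called without bleomycin array a (adjusted p = 0.169) or saline array b (0.0599), and Ltbp2 was not called without bleomycin array a (adjusted p = 0.271) or saline array a (0.173).

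Of 13 matrix proteases and inhibitors 6 rose and none fell, with a median of 0.69. Mmp12, the macrophage elastase, read 13439.5 and 7365 against 1387 and 1057, a rise of 2.95 ± 0.40 (adjusted p = 0.000537). Another Mmp12 probe set gave 3.15, and the call was kept without any 1 of the 4 arrays. Mmp14, the membrane collagenase that activates other proteases, read 4405 and 3843 against 1917 and 2259 (0.95, adjusted p = 0.0111).

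For Adam8, Mmp8 and Timp1 the bleomycin arrays differed more from each other. Adam8, a leukocyte metalloprotease, read 3072 and 1020.4 against 311 and 246 (2.35 ± 0.62, adjusted p = 0.0274). Mmp8, the neutrophil collagenase, read 680.3 and 358 against 25.4 and 60.5 (2.14 ± 0.59, adjusted p = 0.0342). Timp1, an inhibitor of these proteases, read 13520.0 and 4599.9 against 2330.5 and 2897 (1.57 ± 0.44, adjusted p = 0.0372). Array a read 1.90 to 3.01 times array b in these genes, yet array b was still above both saline arrays. Of the 6 genes that rose, 1 was called without bleomycin array a (adjusted p 0.471 for Timp1, 0.334 for Adam8, 0.301 for Mmp8 and 0.132 for Mmp14), 1 without saline array a and 2 without saline array b.

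Of 21 cathepsins and other lysosomal proteins 10 rose and none fell, and the median was 0.76. Ctsk, a cathepsin that cuts collagen, read 2819.8 and 1962 against 517 and 702 (1.81 ± 0.24, adjusted p = 0.000489). Lgmn, legumain, a lysosomal peptidase, read 6921 and 5208 against 1528 and 2205 (1.66 ± 0.24, adjusted p = 0.000787). Both were called without any 1 of the 4 arrays. Cd68, a lysosomal membrane protein of macrophages, read 4601 and 2473 against 1047 and 1151 (1.54 ± 0.27, adjusted p = 0.00305), and Ctsb, a cysteine cathepsin, 12914 and 7773 against 4319 and 4206 (1.22 ± 0.23, 0.00427). In all 4 the order was array a, array b, then both saline arrays. Without bleomycin array a, 2 of the 10 were called (adjusted p up to 0.469), without saline array a 6, and without saline array b 5. The summed intensity of 24 macrophage markers, which include Cd68 of this group, was also higher on both bleomycin arrays, with array b nearer to saline than array a. It was 74614 and 47672 on bleomycin arrays a and b and 42486 and 36926 on saline arrays a and b, none of its tested markers was at 0, and its part in the rise of the cathepsins was not tested.

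Macrophage markers rose for 7 of 24 tested genes and fell for 1, with a median of 0.91. Fcgr2b, the inhibitory Fc receptor, read 2028 and 881 against 256 and 347 (1.88 ± 0.33, adjusted p = 0.00305). Lgals3, galectin-3, which is abundant in macrophages and in injured epithelium, read 5904 and 3423 against 2070.3 and 2102 (1.08 ± 0.21, adjusted p = 0.00488). Cd68, given above, was another. The gene that fell was Cd36, a scavenger receptor that capillary endothelium also carries, from 907 and 1217 to 253 and 569 (-1.26, adjusted p = 0.00559; not called without bleomycin array a (adjusted p = 0.130) or saline array b (0.0633)). None of the 7 that rose was called by limma without bleomycin array a (adjusted p from 0.0817 to 0.332), and 7, 4 and 4 were called without bleomycin array b, saline array a and saline array b. The median without bleomycin array a was 0.61.

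C1q, the recognition molecule of complement that macrophages make, rose in all 3 of its chains. C1qb read 11211 and 4216 against 759 and 883, a change of 2.94 ± 0.33 (adjusted p = 0.0001). C1qc read 14345 and 5887 against 1842 and 1950.3 (2.22 ± 0.26, 0.000159), and C1qa 9842 and 5458 against 1858 and 1805 (1.95 ± 0.26, 0.000537). Array a read 1.80 to 2.66 times array b, and array b was still at least 2.94 times the higher saline array. The calls were kept without any 1 of the 4 arrays, while a dim additional probe set for C1qb was not called (0.23, adjusted p = 0.652).

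Elsewhere in complement, 4 of 15 genes rose, the 3 C1q chains among them, and 1 fell (median 0.36). C3ar1, the receptor for the C3a fragment, read 1805 and 711 against 254 and 254 (1.83 ± 0.35, adjusted p = 0.0046; not called without bleomycin array a (adjusted p = 0.117)). Hc, complement component C5, fell from 6511 and 6102 to 534 and 3926 (-2.01 ± 0.51, adjusted p = 0.0238). Its low value stood on array a, array b read closer to saline, and the call was lost without bleomycin array a (adjusted p = 0.332), saline array a (0.104) or saline array b (0.0936).

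Arg1, arginase, which turns arginine into ornithine and urea and marks alternatively activated macrophages, had the second largest rise of all genes. It read 4652 and 2903 on bleomycin arrays a and b and 88.4 and 110.3 on saline arrays a and b, a change of 4.30 ± 0.40 (adjusted p = 1.9e-05), and the highest adjusted p without 1 of the 4 arrays was 0.000808. Of the 13 chitinase-like and type 2 activation genes that include it, 2 rose and 1 fell (median 0.60). Clca3a1, a chloride channel regulator, read 663 and 684 against 133 and 127 (1.79 ± 0.25, adjusted p = 0.000634) with nearly equal bleomycin arrays, and was likewise called without any 1 array. Its link to type 2 activation was not tested, and its rise is not read as a sign of it. Chil1, a chitinase-like lectin, fell from 5369 and 6221 to 860.0 and 3019.6 (-1.77 ± 0.38, adjusted p = 0.00923; not called without bleomycin array a (adjusted p = 0.169) or saline array b (0.0644)).

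Of 12 chemokines and receptors of monocytes and lymphocytes 4 rose, all of them ligands that draw monocytes, none fell, and the median was 1.07. Ccl8 read 1264 and 876 against 42.8 and 52.9 (3.04 ± 0.27, adjusted p = 1.9e-05) and was called without any 1 of the 4 arrays. Ccl12 read 463 and 324 against 48 and 55.1 (1.74 ± 0.36, adjusted p = 0.00754). Ccl2, the main ligand of the monocyte receptor CCR2, read 1752 and 643 against 113 and 60.8 (2.72 ± 0.72, adjusted p = 0.0288), and Ccl9 11035 and 3470.3 against 1127 and 1149 (2.36 ± 0.61, 0.0262). For each of the 4, as for all 202 higher genes, both bleomycin arrays were above both saline arrays. Array a read 1.43 to 3.18 times array b. Without bleomycin array a only Ccl8 was called (adjusted p = 0.121, 0.305 and 0.336 for the others), and 2 of the 4 were called without saline array a or saline array b. Saa3, an acute phase apolipoprotein, had the largest change of all genes, 4.43 ± 1.23 (adjusted p = 0.0347), with 11238 and 4848 against 207 and 311. Its call was lost without bleomycin array a (adjusted p = 0.278), saline array a (0.138) or saline array b (0.112).

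Among regulators of TGF-beta signalling, which drives collagen production by fibroblasts, and of the related BMP signalling, 3 of 25 genes rose and 3 fell (median 0.05). Fst, follistatin, a secreted antagonist of activin, read 1453 and 1072 against 108 and 22.1 (3.15 ± 0.34, adjusted p = 6.3e-05). Ccn2, connective tissue growth factor, a target of TGF-beta, read 9466 and 6427 against 1706 and 2476 (1.88 ± 0.19, 3.3e-05). Smad6, an inhibitor inside the cell of BMP signalling, fell from 6857 and 5715 to 2219 and 3194 (-1.20 ± 0.17, 0.000634). These 3 were called without any 1 of the 4 arrays, and in each, as in every called gene, the groups did not overlap. Bmp6, a BMP ligand, fell from 2730.4 and 2422 to 919 and 1443 (-1.10, adjusted p = 0.00722; not called without bleomycin array a (adjusted p = 0.151) or saline array a (0.0592)). The ligand Tgfb1 itself read 3115 and 1266 against 2089.7 and 1485 and was not called (0.17 ± 0.32, adjusted p = 0.812); array a read above both saline arrays and array b below both.

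Of 17 contractile genes of myofibroblasts and smooth muscle 1 rose and 1 fell (median 0.19), where 3.12% of all genes rose and 4.61% fell. Acta2, smooth muscle actin, read 4041 and 4147 against 2441 and 2630.2. Both bleomycin arrays were above both saline arrays, but the change was not called (0.67 ± 0.28, adjusted p = 0.166). Tagln, an actin-binding protein, rose (7978 and 4788 against 4073 and 3254, 0.75, adjusted p = 0.0456), and Cnn1, calponin, fell (429 and 504 against 899 and 783, -0.74, 0.0418). Neither was called without bleomycin array a (adjusted p = 0.494 and 0.293), saline array a (0.0725 and 0.181) or saline array b (0.257 and 0.101).

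Of 15 fibroblast and mesenchyme genes 1 rose and 1 fell, and the median was -0.01. S100a4, a calcium-binding protein of fibroblasts and macrophages, read 6744 and 2859.8 against 867 and 739.8 (2.33 ± 0.30, adjusted p = 0.000302). Tcf21, a transcription factor of lung mesenchyme and lipofibroblasts, fell from 3719.6 and 3121 to 926 and 1508 (-1.46 ± 0.23, adjusted p = 0.00162). Both kept their call without any 1 of the 4 arrays. The summed intensity of this list was 33551 and 31679 on the bleomycin arrays and 32618 and 33995 on the saline arrays, which overlapped.

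**Figure D3:**
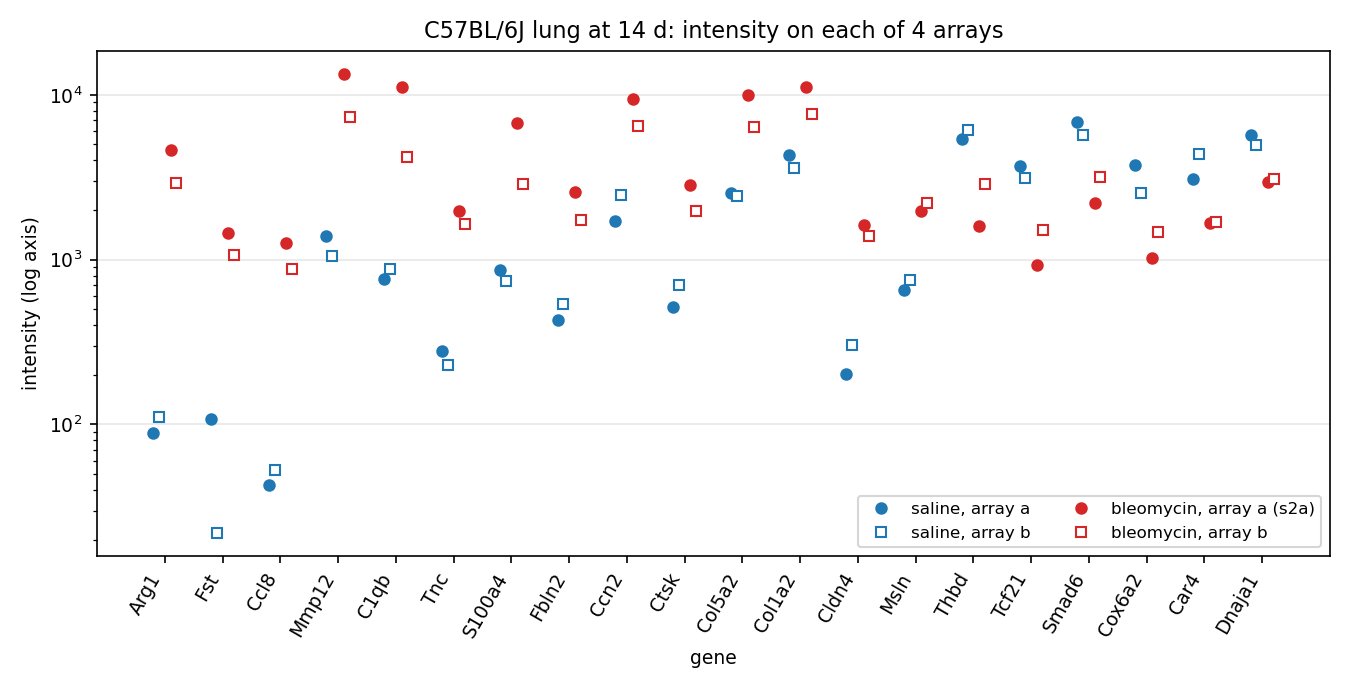
Intensity on each of the 4 arrays (log axis) for 20 genes called without any 1 of the 4 arrays. Filled symbols are arrays a and open symbols arrays b. The first 14 genes were higher after bleomycin (red), from Arg1 (4652 and 2903 against 88.4 and 110.3) to Msln, and the last 6 lower, from Thbd to Dnaja1.

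Epithelial genes were called in both directions. Of 21 genes of injured or transitional epithelium 4 rose and none fell (median 0.53). Cldn4, a tight junction claudin of injured alveolar epithelium, read 1634 and 1399 against 202 and 305 (2.23 ± 0.33, adjusted p = 0.000833) and was called without any 1 of the 4 arrays. Sprr1a, a cornified envelope protein, read 1658 and 1077 against 499.8 and 395 (1.41 ± 0.30, 0.00799), and Sfn, the 14-3-3 sigma protein, 2576 and 1449.9 against 784 and 596 (1.39 ± 0.30, 0.00984). Neither of these was called without bleomycin array a (adjusted p = 0.149 and 0.187) or saline array b (0.0699 and 0.0831). Msln, mesothelin, of the cells that line the pleura, rose from 652 and 751 to 1974 and 2208 (1.46 ± 0.19, adjusted p = 0.000414) and was called without any 1 array, whereas the other 3 tested mesothelial genes were not called.

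In the list of 18 airway secretory and ciliated genes 5 fell and none rose, with a median of -0.50. The 5 that fell, Pon1, Gsta3, Aldh1a7, Fmo1 and Cyp2b10, code for metabolic enzymes, and the secretory gene Scgb1a1 did not fall. Pon1, paraoxonase, read 373 and 691 against 2799 and 1832 (-1.97 ± 0.37, adjusted p = 0.00464). Gsta3, a glutathione transferase, read 367 and 527 against 779 and 876 (-0.78, 0.024), Aldh1a7, an aldehyde dehydrogenase, 717 and 1057 against 1549.9 and 2247 (-1.02, 0.0263), and Fmo1, a flavin monooxygenase, 2347 and 5698 against 7605 and 7473 (-1.02, 0.0274). In all 4 array a was the lowest array. Without bleomycin array a none of the 5 was called by limma (adjusted p from 0.100 to 0.403), and 1 and 2 were called without saline array a and saline array b. Scgb1a1, the club cell secretoglobin, read 16391 and 3855 against 3118 and 335 and was not called (2.78 ± 0.85, adjusted p = 0.0542). Array a read 4.25 times array b after bleomycin and 9.31 times after saline.

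In the list of 18 alveolar type 2 genes 4 fell and none rose (median -0.14). S100g, a calcium-binding protein, fell from 675 and 654 to 199 and 273 (-1.21 ± 0.22, adjusted p = 0.00343), and Lpcat1, which makes surfactant lipid, from 4901 and 3649 to 2485 and 2537 (-0.73, 0.0164). Cd36 and Hc, given above among the macrophage and complement genes, were the others. None of the 4 was called by limma without bleomycin array a (adjusted p from 0.0759 to 0.332). The surfactant genes did not show a fall. Sftpc read 14576 and 710.0 against 650.5 and 127 and was not called (3.09 ± 1.22, adjusted p = 0.139). Sftpb read 14028 and 1575 against 1404 and 340, and the dim Sftpd 74.5 and 181 against 159 and 109. Of 14 alveolar type 1 genes none was called by limma (median 0.22).

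Of 37 endothelial genes 11 fell and none rose, with a median of -0.33. Thbd, thrombomodulin, which turns thrombin into an anticoagulant on vessel walls, fell from 5372 and 6112 to 1594 and 2891 (-1.38 ± 0.22, adjusted p = 0.00162). Car4, a carbonic anhydrase of lung capillaries, fell from 3100.3 and 4356 to 1669 and 1682 (-1.09 ± 0.16, 0.000894). Both were called without any 1 of the 4 arrays, although the dimmer other probe set of each was not called (-0.56 and -0.01). Icam2, an adhesion molecule of resting endothelium, fell from 4231 and 3832 to 1264 and 2315 (-1.19 ± 0.21, 0.00342), and Tie1, an endothelial receptor kinase, from 4249.5 and 4363 to 1575 and 2596 (-1.05 ± 0.21, 0.00625).

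In all 4 of these endothelial genes, as in all 298 lower genes, both bleomycin arrays were below both saline arrays. Of the 11 that fell 2 were called without bleomycin array a (adjusted p up to 0.409), 10 without bleomycin array b, 4 without saline array a and 7 without saline array b. The summed intensity of the 37 genes was 81287 and 85866 after bleomycin and 113960 and 109875 after saline. In the list of plasminogen and coagulation genes, 2 of 12 rose and Thbd fell (median 0.46). Procr, the endothelial receptor for protein C, read 469 and 364 against 162 and 131 (1.09 ± 0.20, adjusted p = 0.00385; not called without bleomycin array a (adjusted p = 0.0817)), and F3, tissue factor, 2765 and 2799 against 897 and 1305 (1.29 ± 0.35, 0.032; not called without any 1 array).

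Genes of cardiac and skeletal muscle, which lung tissue holds in the walls of the pulmonary veins, fell for 11 of 29 and rose for none (median -0.28). Cox6a2, a muscle subunit of cytochrome c oxidase, fell from 3739 and 2552 to 1023 and 1477 (-1.27 ± 0.20, adjusted p = 0.00142), and Atp2a2, the calcium pump of the sarcoplasmic reticulum, from 1278 and 1769 to 601 and 621 (-1.18 ± 0.21, 0.00291). These were called without any 1 of the 4 arrays. Myl7, an atrial myosin light chain, fell from 3653 and 3124 to 903 and 1742 (-1.36 ± 0.25, 0.00377), and Myh6, the alpha heavy chain of cardiac myosin, from 1934 and 1852 to 766 and 921 (-1.09 ± 0.21, 0.00475). Csrp3, a muscle LIM protein, was among the 12 genes with the largest falls of all, from 357 and 304 to 26.9 and 30.3 (-1.81, 0.00486). On the C57BL/6J saline arrays of 24 h Csrp3 read 64.6 and 143, below both saline arrays of 14 d. The same held there for Cox6a2 (1677 and 1268), Atp2a2 (988 and 933), Myl7 (1794 and 1636) and Myh6 (1210 and 1221). The part of these lower saline values in the falls was not tested.

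The muscle genes fell on both bleomycin arrays, and array b was the higher of the pair in these 5. Their summed intensity over the 29 genes was 13508 and 17348 after bleomycin and 28733 and 27001 after saline, with no tested member at 0. Of the 11, 2 were called without bleomycin array a, 11 without array b and 7 without either saline array. The sources used here do not say how much heart or vein tissue each lung sample held, and its part in these falls was not tested.

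B cell genes fell for 4 of 20 and rose for none (median -0.32). Cd79b and Cd79a, the signalling chains of the B cell receptor, fell from 1177 and 1474 to 420.1 and 590.4 and from 1733 and 1674 to 643 and 794 (-1.25 ± 0.24 and -1.15 ± 0.23, adjusted p = 0.00486 and 0.00696). Ms4a1, the surface protein CD20, fell from 1681 and 1859.7 to 451 and 1168 (-1.17, 0.0157), with array b much nearer to saline than array a, and Prdm1, a factor of plasma cells, from 445 and 423 to 202 and 238 (-0.76, 0.0367). Without bleomycin array a none was called by limma (adjusted p from 0.0961 to 0.289), and 2 were called without either saline array. The summed intensity was 20951 and 22258 after bleomycin and 26662 and 26364 after saline. Of 18 T and NK cell genes 2 fell and none rose (median -0.51): Gata3, a factor of T helper cells, from 351 and 469.9 to 192 and 169.8 (-0.87, 0.0112), and Gzma, granzyme A, from 433 and 492 to 82.7 and 258 (-1.16, 0.0451). Gata3 was not called without bleomycin array a (adjusted p = 0.0816) or saline array b (0.111), and Gzma was not called without bleomycin array a (adjusted p = 0.471), saline array a (0.119) or saline array b (0.186).

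Genes of the p53 response, which bleomycin sets off by breaking DNA, rose for 5 of 19 and fell for none (median 0.34). Gadd45g, a stress sensor, read 1877 and 1425 against 639 and 486 (1.41 ± 0.27, adjusted p = 0.00474), Ckap2, a spindle protein, 487 and 533 against 215 and 142 (1.16 ± 0.25, 0.00984), and Phlda3, an inhibitor of Akt, 3154 and 2150.2 against 1703 and 1084 (0.89 ± 0.20, 0.0111). Cdkn1a, the p21 cell cycle inhibitor, read 3572 and 2064 against 1426 and 1476. Both bleomycin arrays were above both saline arrays, and the change was not called (0.87 ± 0.27, adjusted p = 0.0638). Of the 5 that rose none was called by limma without bleomycin array a (adjusted p from 0.0817 to 0.200), 4 without bleomycin array b or saline array a, and 2 without saline array b.

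Of 51 cell cycle and DNA replication genes 4 rose and none fell (median 0.21). Kif22, a chromosome motor, read 892 and 1156 against 409.7 and 503 (1.02 ± 0.21, adjusted p = 0.00722). Ccnb2, a mitotic cyclin, read 1606 and 1578 against 999.9 and 937 (0.67, 0.0104), Cks1b 1047 and 943 against 482 and 509.9 (0.88, 0.02), and Cdk1, the mitotic kinase, 479 and 502 against 205 and 297 (0.78, 0.0327). Array a was the higher of the bleomycin arrays in 2 of these 4. Of the 4, 1 was called without bleomycin array a, 3 without bleomycin array b, 1 without saline array a and 2 without saline array b.

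The list of heat shock and immediate early genes held 5 genes that rose and 5 that fell, of 26 (median 0.06). Split after the values were seen, the 16 immediate early genes held the 5 rises (median 0.56) and the 10 chaperones the 5 falls (median -0.51). Dnaja1, a cochaperone of Hsp70, fell from 5709.6 and 4969 to 2961 and 3088 (-0.80 ± 0.14, adjusted p = 0.00343) and was called without any 1 of the 4 arrays. Hsph1, a large Hsp110 chaperone, fell from 2946 and 3595 to 697 and 1428 (-1.61 ± 0.32, 0.00547; not called without bleomycin array a (adjusted p = 0.130)). Junb, a subunit of the AP-1 transcription factor, rose from 777 and 426 to 2508 and 1613 (1.65 ± 0.36, 0.0105), and Egr2, a growth-induced zinc finger factor, from 343 and 394 to 1059 and 585 (0.94, 0.0119).

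The other chaperones that fell, named after their values were seen, were Hspa1a (599 and 519 against 969 and 1167), Hspa1b (625 and 503 against 861 and 1387) and Dnajb1 (669 and 737 against 1027 and 1250.3), with changes of -0.83, -0.86 and -0.62. Hspa1a and Hspa1b are near-identical copies, so their probe sets may read each other's RNA and their separate values are uncertain. Of the 5 chaperones 1 was called without bleomycin array a, 3 without bleomycin array b, 5 without saline array a and 2 without saline array b. None of the 5 immediate early genes was called by limma without bleomycin array a (adjusted p from 0.162 to 0.527), 4 without bleomycin array b, 1 without saline array a and 2 without saline array b.

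Chaperone genes are switched on by HSF1, which binds repeats of GAA and its complement. The windows from 250 bases before to 50 after the annotated start of Hsph1 (chr5:149636287-149636586, minus strand) and Hspa1b (chr17:34959189-34959488, minus strand) are shown because both genes fell. They are taken from RefSeq on GRCm38.p6, 5′ to 3′, with capitals on each pair of head-to-head or tail-to-tail units, GAANNTTC or TTCNNGAA. Each motif is its own reverse complement, so that one search covers both strands, and overlapping matches were counted.
Hsph1: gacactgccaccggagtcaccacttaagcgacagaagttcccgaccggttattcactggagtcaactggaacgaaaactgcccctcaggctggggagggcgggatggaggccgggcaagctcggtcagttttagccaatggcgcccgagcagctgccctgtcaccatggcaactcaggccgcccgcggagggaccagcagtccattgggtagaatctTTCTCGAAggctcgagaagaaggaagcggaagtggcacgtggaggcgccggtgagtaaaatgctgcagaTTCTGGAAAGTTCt
Hspa1b: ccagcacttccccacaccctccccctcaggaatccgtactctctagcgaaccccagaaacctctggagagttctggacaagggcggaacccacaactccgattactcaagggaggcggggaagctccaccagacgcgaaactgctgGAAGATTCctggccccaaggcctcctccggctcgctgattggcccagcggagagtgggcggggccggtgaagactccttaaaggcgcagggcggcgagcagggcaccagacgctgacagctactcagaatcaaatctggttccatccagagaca
The Hsph1 window held 3 such pairs, which include 1 run of 3 units (GAANNTTCNNGAA or TTCNNGAANNTTC), and the Hspa1b window 1 pair and no run. Of all 32851 windows of this length in the RefSeq table, 15.1% held a pair and 0.603% a run. Hspa1a held 1 pair, the 2 windows of Dnajb1 held none, and 1 of the 3 windows of Dnaja1 held 1 pair. Hspa4, whose brightest probe set also fell, held none. Hspd1 and Hspe1, mitochondrial chaperonins that share one promoter region, held 3 pairs and 2 runs each (in 1 of the 2 windows of Hspd1), more runs than Hsph1, and were not called (-0.33 and -0.39, adjusted p = 0.493 and 0.136). The matches describe the sequence and do not show binding.

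Further lists follow, and over all genes the shares called were 3.12% higher and 4.61% lower. Of 29 interferon-stimulated genes 1 rose and 2 fell, with a median of -0.06 that became 0.00 after quantile and 0.04 after cyclic loess normalization. Iigp1, an interferon-inducible GTPase, rose from 1205 and 1156 to 3516 and 2285 (1.20, adjusted p = 0.0124), and Irf9, a subunit of the ISGF3 transcription factor, fell from 2926 and 2277 to 1257 and 1394 (-0.92, 0.00357). The former was not called without bleomycin array a (adjusted p = 0.202), saline array a (0.0591) or saline array b (0.0715), the latter not without bleomycin array a (adjusted p = 0.0621). Of 15 MHC class I genes and 9 genes of the IGF axis none was called by limma in its brightest probe set (medians -0.15 and 0.09). The other probe set of Igf1, the growth factor itself, was called, with 1160.4 and 766 against 236 and 245 (1.64, adjusted p = 0.0136). Of 12 MHC class II presentation genes (median -0.11) 1 rose, Ctss (17946 and 9323 against 6746 and 6568, 0.95, 0.0384; not called without bleomycin array a (adjusted p = 0.469), saline array a (0.120) or saline array b (0.147)).

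Of 34 antioxidant and glutathione genes 2 rose and 4 fell (median -0.02, and 0.03 after cyclic loess normalization). Txnrd1, thioredoxin reductase, read 2490.0 and 2008 against 1101 and 1175 (0.92, adjusted p = 0.00422; not called without bleomycin array a (adjusted p = 0.0829)). Of the 4 that fell none was called by limma without bleomycin array a (adjusted p from 0.293 to 0.503), 4 without bleomycin array b, 1 without saline array a and 0 without saline array b. Mt1, a metallothionein, was the only one of 3 to be called, with 12732 and 4884 against 2431 and 1783 (1.88 ± 0.53, 0.0372; not called without bleomycin array a (adjusted p = 0.403), saline array a (0.0925) or saline array b (0.190)). Blmh, the hydrolase that inactivates bleomycin, read 1644 and 2148 against 1916 and 1932. Its bleomycin arrays lay on either side of the saline arrays, and it was not called (-0.03 ± 0.15, adjusted p = 0.933).

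The calls in other lists were as follows. In the cytokine list 1 of 24 genes rose (median 0.41), Socs3, a feedback inhibitor of cytokine signalling, with 1706 and 1645 against 567 and 557 (1.43, 0.0149; not called without bleomycin array a (adjusted p = 0.130), saline array a (0.0711) or saline array b (0.0766)). Of 16 integrins (median 0.12) 1 rose, Itgb2, the leukocyte beta 2 chain, with 2197 and 1359 against 729 and 940.0 (0.99, 0.0106; not called without bleomycin array a (adjusted p = 0.206) or saline array a (0.0964)). Of 11 circadian clock genes (median -0.32) 2 rose, Bhlhe40 (2084 and 1922 against 839.9 and 923, 1.11, 0.0214; not called without bleomycin array a (adjusted p = 0.169), saline array a (0.108) or saline array b (0.0764)) and Cry1 (1384 and 1539 against 732 and 801, 0.85, 0.0274; not called without any 1 array), and 1 fell, Nr1d1, from 3006 and 2024 to 1335 and 935 (-1.08, 0.0139; not called without bleomycin array b (adjusted p = 0.0677) or saline array a (0.135)). The sources used here do not give the hour at which lungs were taken.

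Of 10 CXC chemokines and receptors 1 fell and none rose (median 0.15). It was Cxcr4, the receptor for CXCL12, from 777 and 1269 to 345 and 579 (-1.01, 0.0334; not called without bleomycin array a (adjusted p = 0.351) or saline array b (0.278)). The ligand Cxcl12 was not called in its brightest probe set (0.07), while another of its probe sets read 1749 and 1481 against 332 and 486 (1.78, adjusted p = 0.00333). Of 18 neutrophil and acute phase genes only Saa3 was called by limma (median 0.50). Of 18 genes of the unfolded protein response (median -0.33) 1 rose, Atf3, a stress-induced factor (1874 and 853 against 566 and 660.1, 0.95, 0.0418; not called without bleomycin array a (adjusted p = 0.527), saline array a (0.172) or saline array b (0.107)), and 1 fell, Creld2, an endoplasmic reticulum protein (638 and 712 against 1035 and 1079, -0.58, 0.0342; not called without bleomycin array a (adjusted p = 0.249), saline array a (0.106) or saline array b (0.148)). Of 7 adipocyte genes (median -0.03) 1 rose, Lpl, lipoprotein lipase, which macrophages also make (5709 and 2175 against 1546 and 1672, 1.09, 0.0345; not called without bleomycin array a (adjusted p = 0.502), saline array a (0.137) or saline array b (0.111)). None of 4 red cell genes (median 0.01) and 19 genes of lipid and cholesterol synthesis (median -0.16) was called by limma. In the other lists, a dimmer probe set was called where the brightest was not for Col18a1 (0.90 and 1.30), Anxa1 (0.80) and F7 (1.07), which were higher after bleomycin in it, and for Ighm (-1.27), Ptprm (-0.75) and Sel1l (-0.74), which were lower.

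**Figure D4:**
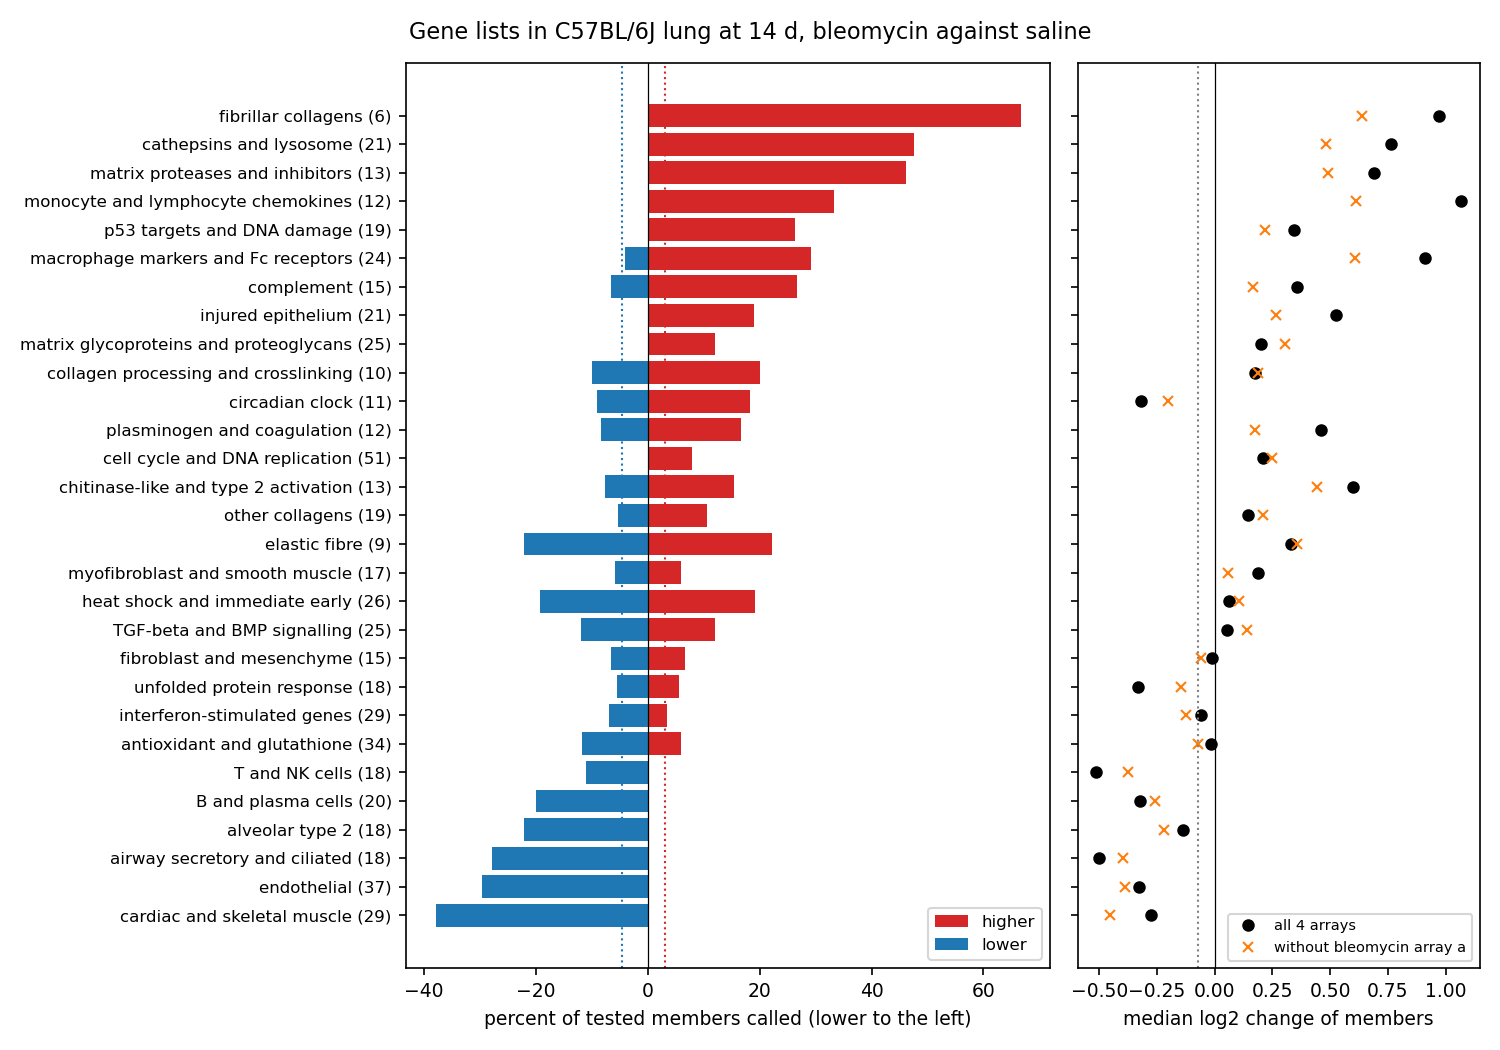
Gene lists with at least 2 called genes, with the number of tested genes in parentheses. Left, the percent of tested genes called higher (red) or lower (blue), with dotted lines at 3.12% and 4.61%, the shares of all genes. Right, the median log2 change with all 4 arrays (black points) and without bleomycin array a (crosses), with a dotted line at -0.07. Fibrillar collagens (median 0.97), cathepsins (0.76) and chemokines (1.07) lie to the right, and airway (-0.50) and endothelial genes (-0.33) to the left.

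Outside the lists, the 12 largest falls included Hspa4, Traf1, Sox11, Mapt and Bpifb1. Bleomycin array b read 2.42, 1.63, 1.64, 2.61 and 2.33 times array a in that order. Hspa4, a chaperone of the Hsp110 family, read 979 and 2371 against 4834 and 4145 (-1.49 ± 0.24, adjusted p = 0.00162) in its brightest probe set. That call was kept without any 1 of the 4 arrays, while its 3 dimmer probe sets read slightly higher after bleomycin (0.17 to 0.38) and were not called. Traf1, a signalling adaptor of TNF receptors, fell from 572 and 611 to 112 and 183 (-1.53 ± 0.30, 0.00574), and Sox11, a transcription factor, from 2014 and 1603 to 472 and 773 (-1.44 ± 0.27, 0.0046). Traf1 and Sox11 were not called without bleomycin array a (adjusted p = 0.105 and 0.102).

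Further large changes were those of Mapt, Bpifb1, Ptms and Cpxm1. Mapt, the microtubule protein tau, fell from 5082 and 4466 to 960.4 and 2511 (-1.55 ± 0.33, adjusted p = 0.00906; not called without bleomycin array a (adjusted p = 0.189) or saline array a (0.0634)). Bpifb1, a secreted airway protein, fell from 2217 and 2002 to 451 and 1052 (-1.48 ± 0.34, 0.0131; not called without bleomycin array a (adjusted p = 0.240), saline array a (0.0781) or saline array b (0.0554)). Ptms, parathymosin, read 11738 and 719 against 204 and 328, so that array a was 16.3 times array b (3.13 ± 0.72, 0.0133; not called without bleomycin array a (adjusted p = 0.130) or saline array a (0.0875)). Cpxm1, a secreted carboxypeptidase-like protein, read 985 and 554 against 77.3 and 59.2 (2.38 ± 0.33, 0.000604) and was called without any 1 array.

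The same contrast in BALB/c mice gave 557 higher (8.62%) and 297 lower genes (4.59%). Of the 202 genes that rose in C57BL/6J, 68 also rose in BALB/c (33.7% of the 202 and 12.2% of the 557). Of the 298 that fell, 14 also fell (4.70% of the 298 and 4.71% of the 297). The difference between the strains in the effect of bleomycin was tested as an interaction: 144 genes were higher (2.23%) and 359 lower (5.55%) in C57BL/6J relative to BALB/c, with a median difference over all genes of -0.13. Of the probe sets called for a difference 34.3% were higher, and 53.8% after cyclic loess normalization, which moved the median over probe sets from -0.10 to 0.01. The 647 probe sets called for a difference became 150 with array weights and 0 by limma with the 8 arrays of 14 d alone, where 1524 had an unadjusted p under 0.05. Leaving out 1 BALB/c array gave 990.0 without bleomycin array a and 170.0, 161 and 136 without bleomycin array b and saline arrays a and b. Leaving out 1 C57BL/6J array gave 303 and 1014 without bleomycin arrays a and b and 382 and 325 without saline arrays a and b.

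Arg1 showed the largest tested strain difference among the genes called in C57BL/6J without any 1 array. It read 157 and 333 on the BALB/c bleomycin arrays and 90.1 and 181 on the BALB/c saline arrays, an effect smaller than in C57BL/6J by 3.76 ± 0.57 (adjusted p = 0.00244). Fst read 149.8 and 20.9 against 11 and 9.45 in BALB/c (difference 2.46 ± 0.48, 0.00851), Fbln2 452 and 609.5 against 439 and 440.5 (1.74 ± 0.28, 0.00315) and Ccn2 4689.9 and 5549.5 against 2678 and 2867 (1.02 ± 0.27, 0.0328). The fibrillar collagens Col5a2, Col1a2 and Col3a1 were not called for a difference (0.50 ± 0.33, 0.49 ± 0.28 and 0.49 ± 0.35), nor was Ccl8 (0.29 ± 0.39) or Mmp12 (1.39 ± 0.56).

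Among the falls, Smad6 read 4005 and 3540.2 against 3889 and 4362 in BALB/c (difference -1.08 ± 0.24, adjusted p = 0.0169), Thbd 3584 and 4264 against 3864 and 3857 (-1.39 ± 0.31, 0.018) and Car4 3933 and 4705 against 3531 and 3972 (-1.29 ± 0.23, 0.0053). In BALB/c the bleomycin and saline arrays of these 3 genes overlapped. Smad6 (4242 and 3786) and Thbd (3362 and 3231) read lower on both C57BL/6J saline arrays of 24 h than on either of 14 d. Car4 (3734 and 3953) read between the saline arrays of 14 d there. The part of this in the strain differences was not tested. Leaving out each of the 8 arrays of 14 d in turn, the strain difference stayed called for Arg1, Fst, Fbln2 and Car4 (highest adjusted p 0.0173, 0.0404, 0.0173 and 0.0323). Smad6 lost it without C57BL/6J bleomycin array a (adjusted p = 0.0571), C57BL/6J saline array a (0.0511) or BALB/c saline array a (0.0708), and Thbd without 5 of the 8 (0.0531 to 0.0702). For Ccn2 it was called only without C57BL/6J bleomycin array b (0.00640) or saline array b (0.0203), and was lost without each of the other 6 arrays (0.0576 to 0.117).

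**Figure D5:**
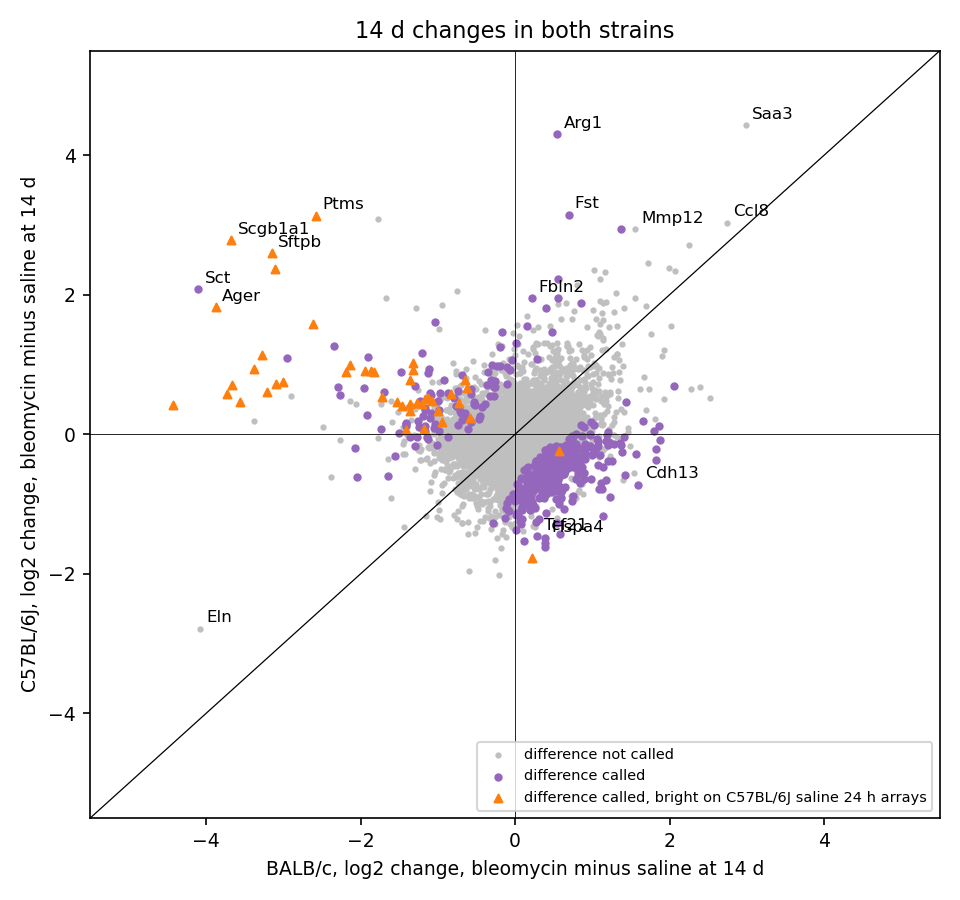
The log2 change of each gene after bleomycin at 14 d in BALB/c (x axis) and in C57BL/6J (y axis), with a line of equal change. Purple genes and orange triangles differed between strains at an adjusted p under 0.05, and the triangles are genes bright on the C57BL/6J saline 24 h arrays. Arg1 (4.30 in C57BL/6J) and Fst (3.15) lie far above the line.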

How the data were processed

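Total RNA of mouse lung was hybridised to an Affymetrix murine expression array, 1 sample per array, per the labels. The deposited values are linear intensities, 1 for each of 12488 probe sets, and the sources used here do not give the authors' algorithm. Each array had a trimmed mean of 799.9 (values outside the 2nd to 98th percentile left out), so no further scaling was applied. After 66 control probe sets were left out, 12422 remained: 10833 with 1 gene name, 396 with several, 1193 with none. Symbols of 10817 were updated through a RefSeq gene table (GRCm38.p6).

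An offset of 92, the median lower quartile of the arrays, was added before log2. The 8710 probe sets above 225.7 (the 40th percentile) on at least 2 arrays were tested with limma 3.58.1 in R 4.3.3: a mean for each of 12 groups, 12 residual degrees of freedom, variances moderated with a trend, two-sided tests, Benjamini-Hochberg adjustment, and calls at an adjusted p under 0.05. Python 3.11.15 made the tables. Groups came from the titles. A gene was read through its brightest one-name probe set over all arrays, for 6464 genes. Of the 202 higher genes 35 had further tested probe sets, in 29 all of the same sign. Of the 298 lower genes 63 had, in 53 all of the same sign.

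Named genes were the 12 largest rises and falls, up to 4 members of each gene list by smallest p, and Col1a1, Col1a2, Col3a1, Fn1, Timp1, Tgfb1, Acta2, Cdkn1a, Ccl2, Mmp12, Sftpc, Scgb1a1 and Blmh. The osteopontin gene Spp1 was also to be named but no tested probe set carried its name. The genes, the 42 lists (1000 genes, 701 tested) and the tests were chosen with earlier results of these data known. Lists are described by counts and medians, with no test. The number of arrays limits the precision. Data were simulated with the spread pooled over the 12 groups and independent noise for each probe set. In them 10.4%, 73.1% and 97.0% of log2 changes of 0.5, 1 and 2 were recovered among 8710 probe sets. For strain differences of these sizes the shares were 0%, 41.8% and 86.4%. The simulation held no array-wide departure such as that of bleomycin array a, so recovery may be lower here. Alternatives were quantile and cyclic loess normalization, other offsets and filters, no variance trend, array weights, fewer arrays in the fit, the array letter as a block, and each array left out. Array letters were not taken as pairs: the difference between arrays a and b correlated across probe sets with r = 0.309 between C57BL/6J bleomycin and saline and with r from -0.00097 to 0.239 between other groups of 14 d.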

Additional observations from a re-analysis of the deposited data

Results flagged for a closer look

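The results below stood out because the effect of bleomycin at 14 d differed between C57BL/6J and BALB/c in the interaction test of limma (adjusted p under 0.05). Values are the effect in C57BL/6J minus that in BALB/c on the log2 scale. Arg1 (3.76), Fst (2.46) and C1qb (1.56) had a more positive effect in C57BL/6J. Tcf21 (-1.75), Hspa4 (-1.88), Hsph1 (-2.004), Chil1 (-1.99), Mapt (-1.95) and Traf1 (-1.64) fell in C57BL/6J and did not fall in BALB/c, where their change lay between 0.12 and 0.39 and was not called. In BALB/c Tcf21 read 3686 and 2787 against 2509.8 and 2706, and Hspa4 3119 and 3331 against 2566 and 2329.7. On the C57BL/6J saline arrays of 24 h Tcf21 (2004 and 1977), Hspa4 (2899 and 2694), Hsph1 (1640 and 2234) and Traf1 (410 and 327) read below both saline arrays of 14 d. Chil1 (6713 and 13033) read above both there, and Mapt (6344 and 3131) on either side. The part of this in the strain differences was not tested. Of 53 named genes with such a difference, 15 were called without each of the 8 arrays in turn, among them Arg1, Fst, Tcf21 and Hspa4. C1qb was called without 1 of the 8 arrays (highest adjusted p 0.193), Chil1 and Traf1 without 2 (0.108 and 0.121), Mapt without 3 (0.0775) and Hsph1 without 4 (0.0825). In its other 3 probe sets Hspa4 was not called for a difference.

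The largest positive differences were of Scgb1a1 (6.46), Sct (6.18), Sftpb (5.75), Ptms (5.71), Ager (5.70), Ly6e (5.47), Rnf10 (4.84), App (4.42), H2-K2 (4.37), Lamp1 (4.31), Sprr1b (4.30) and Tuba1c (4.20). All of these except Sct were bright on the C57BL/6J saline 24 h arrays, which alone have titles ending in s1. Of the 202 genes bright there, 42 were called for a positive and 2 for a negative strain difference, and bleomycin array a read above array b in 167. Scgb1a1, a club cell protein, read 16391 and 3855 against 3118 and 335 in C57BL/6J and 194 and 129 against 2476 and 3922 in BALB/c. Sftpb, a surfactant protein, read 14028 and 1575 against 1404 and 339.7 and 842 and 177 against 5243 and 3645, and Ager, of alveolar type 1 cells, 14225 and 1846 against 4056 and 443 and 538 and 224 against 6765 and 6178. BALB/c bleomycin array b had the lowest maximum of all 24 arrays, 6888. The part of the arrays' upper range in these differences was not tested. In C57BL/6J Sct read 2121 and 1206 against 695 and 113, Ly6e 7804 and 255 against 236 and 223, Rnf10 5197 and 1079 against 4606 and 646 and App 16296 and 3897 against 8718 and 1431. H2-K2 read 10554 and 3681 against 5232 and 2736, Lamp1 15206 and 3286 against 4739 and 2835, Sprr1b 6403 and 625 against 2771 and 645 and Tuba1c 10710.2 and 3315 against 3766 and 977. The other probe set of Sct, secretin, was not called for a difference (0.90, adjusted p = 0.183). Of the 12, Scgb1a1, Sct, Ptms, Rnf10 and H2-K2 were called without each of the 8 arrays, Sftpb, Ager and Tuba1c without 7, and Lamp1, Sprr1b, App and Ly6e without 3, 3, 3 and 2.

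The largest negative differences, where BALB/c saline was low, were of Cdh13 (-2.32), Dut (-2.31), Get4 (-2.20), Lrp5 (-2.13), Lsm2 (-2.04), Six5 (-2.01), Tyro3 (-2.01), Itgb4 (-1.95) and Zfp57 (-1.91). Itgb4, the integrin beta 4 chain of epithelial hemidesmosomes, read 546 and 472 against 569 and 515 in C57BL/6J and 392 and 656 against 80.9 and 63.7 in BALB/c. Lsm2, of the RNA splicing machinery, read 557 and 648 against 685 and 736 and 788 and 799 against 89.5 and 251. In C57BL/6J Cdh13 read 229.6 and 257 against 462 and 459, Dut 54.5 and 43.6 against 156 and 311, Get4 569 and 274 against 523 and 566 and Lrp5 435 and 257 against 651 and 770.1. Six5 read 185 and 108 against 512 and 573, Tyro3 242 and 158 against 315 and 371 and Zfp57 257 and 110.0 against 345 and 389. Lrp5, Lsm2 and Itgb4 were called without each of the 8 arrays, Zfp57 without 7, Tyro3 without 6, Cdh13 without 4, Get4 without 3, Dut without 1 and Six5 without 0 of them.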

How the results depend on the processing

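The 647 probe sets called in C57BL/6J became 175 with array weights, 295 with the C57BL/6J arrays alone and 4 with only the 4 arrays compared, where 1118 had an unadjusted p under 0.05. Leaving out 1 of the 4 arrays gave 87 (without bleomycin array a) to 1249 (without bleomycin array b), with 291 and 312 without saline arrays a and b. Quantile and cyclic loess normalization, other offsets and filters, no variance trend and leaving out the 4 saline arrays of 72 h gave 551 to 699. With the array letter as a replicate block 620 were called. The labels do not show that the letters pair the arrays. Added after the values were seen, leaving out the C57BL/6J saline 24 h arrays gave 696, and leaving out the probe sets bright on them 689. The 647 probe sets called for a strain difference became 150 with array weights and 0 by limma with the 8 arrays of 14 d alone, where 1524 had an unadjusted p under 0.05. Leaving out 1 of the 8 arrays gave 136 (without BALB/c saline array b) to 1014 (without C57BL/6J bleomycin array b), with 303 without C57BL/6J bleomycin array a, and the replicate block 568. Other settings of the strain difference gave 450 to 675.

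Of the 122 genes followed through these settings 114 were called with all arrays. Of these 114, 83 were no longer called without bleomycin array a, 48 without saline array a, 48 without saline array b and 6 without bleomycin array b. Only the 4 arrays compared ended the call of 110 of the 114, array weights of 59, the C57BL/6J arrays alone of 36, leaving out the 4 saline arrays of 72 h of 14, no filter of 11, quantile normalization of 9, the replicate block and no variance trend of 4 each, cyclic loess of 3 and the larger offset of 1. Direction changed for 4 genes that were not called. Without bleomycin array a and array b the change was -0.021 and 1.15 for Col1a1, -0.45 and 0.79 for Tgfb1, -0.70 and 0.42 for Fn1, and 0.15 and -0.22 for Blmh, the ends of each gene's range over the 4 arrays left out. It was -0.064 for Tgfb1 without saline array b and 0.025 for Blmh after cyclic loess. The causes were not tested. Signal over background is not recorded in the table, so dim genes such as Fst after saline have no measured limit here.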

Other observations

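Of the genes called in C57BL/6J with all arrays and again without each of the 4 arrays in turn, several belong to none of the groups described, and they were chosen after their values were seen. Sfrp1, a secreted antagonist of Wnt signalling, read 1154 and 991 on bleomycin arrays a and b and 201 and 238 on saline arrays a and b (1.90 ± 0.30, adjusted p = 0.00129). Ackr3, the scavenging receptor for CXCL12, read 2387 and 2331 against 703 and 786 (1.55 ± 0.25, 0.00162). Fkbp1b, which binds the ryanodine receptor, read 1711 and 1364 against 503 and 479.7 (1.47 ± 0.18, 0.000175). In these 3 the bleomycin arrays were close together and far above saline. The adhesion molecules Chl1 (309 and 287 against 6.02 and 11.3, 1.95) and Pcdh7 (620.0 and 347 against 58.6 and 77.8, 1.81) rose from dim saline levels. Gpc1, a cell surface proteoglycan, read 1800.4 and 1553 against 783 and 713 (1.07), and Grn, the lysosomal protein progranulin, 6092 and 3808 against 2026 and 2477 (1.07).

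Among the falls of this kind, Rasip1, a protein of endothelial junctions, read 2571 and 2529 against 4226 and 4421 (-0.74 ± 0.14, adjusted p = 0.00486), and Arap3, a GTPase regulator of endothelium, 734 and 957 against 1771 and 2227 (-1.16 ± 0.16, 0.000604). Cftr, the chloride channel of epithelia, fell from 819 and 763 to 302 and 404 (-0.997 ± 0.15, 0.000964), and Ptprf, a receptor phosphatase, from 3744 and 3748 to 2463 and 2282 (-0.64 ± 0.13, 0.00705). Both bleomycin arrays were below both saline arrays in all 4, as in all 298 lower genes.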
